A study of Mus musculus with 3 samples.

Results

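Prex2, Xkr4, Alk and Il1rapl1 are 4 long genes that were selected on measured values of these libraries: more open chromatin lay over them in proximal tubule cells of old than of young kidneys. They are 4 of the 25550 genes with a region of open chromatin that had a peak in every library, inside the gene or within 2 kb of it. The work described here located the peaks that carry the difference and followed them through cell classes and clusters. Since the comparison of old with young proximal tubule cells chose the genes, their values there are a description and carry no p-value.

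Open chromatin was measured in single kidney cells by mtscATAC-seq, in which cells are fixed and permeabilised before a transposase cuts accessible DNA. All mice carried a mutation in trnE, the mitochondrial gene for the glutamate tRNA, so no animal without it was compared. The old group, 75 weeks of age, had a mutation load of 75% in its replicate 1 and 80% in its replicate 2, and the only young library, 3 weeks of age, had a load of 80%. Whether the old replicates are separate animals is not in the labels, and a p-value here reflects no more than how far those 2 libraries differ, which technical variation alone may set. Strain and sex are not given in the labels. The libraries held between 4302 and 5656 barcodes, with a median of 13338.5 to 23319.5 counts per barcode, and pairs of libraries shared between 28 and 39 barcodes.

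Old replicate 1 stood apart in its cells. Of the cells kept, 284 were proximal tubule-like in old replicate 1 and 3520 in old replicate 2, against 3333 in the young library. Macrophage or dendritic cell-like cells numbered 3439 and 7 in the old replicates, against 138 in the young library. Summed over the 20 proximal tubule markers with a common region, the proximal tubule-like class had 1866 and 2217 CPM in the old replicates, against 2432 CPM in the young library. None of those 20 was at 0 in any library. This does not test the name of the class, since the same markers named the clusters and each had a peak in every library. CPM stands for counts per 1000000 of all the counts in common regions, the merged regions with a peak in every library, and is scaled within each library and class.

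PREX2 is an exchange factor that activates the small GTPase Rac in response to PI3-kinase and G-protein signals. XKR4 belongs to the XK-related family of membrane proteins and exposes phosphatidylserine on dying cells after cleavage by a caspase. ALK is a receptor tyrosine kinase of the nervous system, known for its fusions in lymphoma and lung cancer, and IL1RAPL1 is a relative of the interleukin-1 receptors that organises synapses. An accessible region marks a promoter, an enhancer or another site of bound factors, and it does not by itself show that the gene is transcribed.

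The 4 genes held 100 regions with a peak in at least 1 library, and 27 of these were common regions. Prex2 (gene ID 109294, chr1:10993273-11303683 in GRCm38) had 14 regions, 4 of them common. Xkr4 (gene ID 497097, chr1:3199733-3671948) had 15, 4 of them common. Alk (gene ID 11682, chr17:71868988-72604702) had 61, 18 of them common. Il1rapl1 (gene ID 331461, chrX:86740937-88115948) had 10, and 1 was common. The annotation used here gave the ends of each gene and not its exons, so a region inside a gene is not assigned to an exon or an intron. Beside small RNA genes, lncRNAs and pseudogenes, no other protein-coding gene lay within 2 kb of any of the 4.

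The 250 bases before the start sites of Alk and Il1rapl1 are shown because the data bear on both: the Alk start lay in a region open in every library, and the Il1rapl1 start in a region without a peak in old replicate 1. Sequences are from RefSeq on GRCm38.p6, minus strand, and capitals mark each CG dinucleotide. The Alk sequence lies at chr17:72604308-72604557 and the Il1rapl1 sequence at chrX:88115949-88116198.
Alk: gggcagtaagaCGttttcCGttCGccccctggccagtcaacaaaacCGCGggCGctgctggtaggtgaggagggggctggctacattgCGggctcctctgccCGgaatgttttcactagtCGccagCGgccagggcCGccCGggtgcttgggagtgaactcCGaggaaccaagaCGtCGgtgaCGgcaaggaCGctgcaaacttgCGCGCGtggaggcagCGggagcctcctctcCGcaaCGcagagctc
Il1rapl1: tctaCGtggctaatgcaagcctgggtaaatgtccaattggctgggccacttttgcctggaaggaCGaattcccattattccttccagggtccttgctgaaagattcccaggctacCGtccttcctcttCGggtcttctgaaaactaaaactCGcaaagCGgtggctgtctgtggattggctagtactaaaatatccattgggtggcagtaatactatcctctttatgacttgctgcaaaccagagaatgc
Of these 250 bases, 65.2% were G or C for Alk and 47.6% for Il1rapl1, beside a median of 52.4% over 32817 promoters. Alk held 23 CG dinucleotides and Il1rapl1 held 6, and the median was 6. On both strands, GGGCGG occurred 1 time before Alk, and CCAAT 4 times before Il1rapl1. GGGCGG was found in 32.7% of all promoters of that length and CCAAT in 33.8%. TATAAA, present in 12.4%, was in neither. Matches of letters describe the sequence and do not show a bound factor.

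Prex2 had the largest fitted difference of the 4 genes in proximal tubule-like cells. It had 37.2 and 41.6 CPM in the old replicates, against 12.0 CPM in the young library. Both old values lay above the young one, a fitted log2 difference of 1.71 (SE 0.29), or 3.28-fold. In comparison, 0.532% of all genes were called higher in old proximal tubule-like cells and 30.5% had both old libraries above the young one, and nothing is read from these shares since the contrast chose the genes.

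The Prex2 difference sat at the low-coordinate end of the gene. The region over that end, chr1:10992972-10994072, had 17.1 and 18.8 CPM in old cells, against 4.50 CPM in young cells. It carried 49.2% of the summed difference. A second region just outside the gene, chr1:10990563-10991509, had 16.9 and 16.6 CPM in old cells, against 3.94 CPM in young cells, and carried 46.7%. Both regions were about 4 times as open in old cells, with fitted folds of 3.92 and 4.15. The other two common regions carried little. At chr1:11064925-11065901 old replicate 1 had 1.18 CPM and old replicate 2 had 5.50 CPM, against 3.31 CPM in young cells, so the young value lay between the old ones. The region at chr1:11033113-11034075, 40.3 kb into the gene, had 1.97 and 0.680 CPM in old cells and 0.227 CPM in young cells.

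That region inside Prex2 was a site of endothelium-like cells. There it had 54.2 and 78.2 CPM in old cells and 67.5 CPM in young cells. Summed over its common regions, Prex2 was more open in endothelium than in any other class named here, at 166 and 184 CPM in old cells and 176 CPM in young cells. The 17 endothelial markers with a common region summed to 223.1 and 227 CPM in old proximal tubule-like cells and 192.4 CPM in young ones, with none at 0, so they too were higher in old cells. In endothelium-like cells the same markers summed to 1562 and 1239 CPM, against 1200 CPM. The region over the gene's end was open in endothelium-like cells as well, at 87.6 and 68.0 CPM in old cells and 74.1 CPM in young cells. The part of endothelial material in the Prex2 difference was not tested.

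Xkr4 was second. It had 71.8 and 55.4 CPM in old proximal tubule-like cells, against 20.5 CPM in young cells. The groups did not overlap, with a fitted log2 difference of 1.60 (SE 0.24), or 3.04-fold. A single region inside the gene, chr1:3514572-3515528, carried 58.4% of the difference. It had 38.4 and 27.8 CPM in old cells, against 7.92 CPM in young cells. The region over the high-coordinate end, chr1:3671299-3672199, had 17.9 and 9.21 CPM in old cells, against 3.05 CPM in young cells, and carried 24.4%. Next to it, chr1:3670282-3671298 had 5.71 and 7.94 CPM in old cells, against 2.58 CPM in young cells, and carried 9.84%. The fourth, chr1:3372397-3373332, had 9.84 and 10.4 CPM in old cells, against 6.96 CPM in young cells. All 4 common regions of Xkr4 had both old libraries above the young one, which held for 34.3% of all 72317 common regions. Nothing is read from that share, since the same contrast chose the gene.

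Alk held far more open chromatin than the others and had the smallest fitted fold over the whole class, though the largest summed difference, 61.9 CPM. It had 277 and 252 CPM in old proximal tubule-like cells, against 203 CPM in young cells, a fitted log2 difference of 0.37 (SE 0.21), or 1.29-fold. Behind this sum the regions differed very unequally. The region at chr17:72448233-72449188, deep inside the gene, had 35.2 and 30.8 CPM in old cells, against 2.86 CPM in young cells. That is 179 and 1406 counts in the old replicates and 227 counts in the young library. Its fitted fold was 11.3, which placed it 25th from the top among the 72317 common regions, and it carried 48.8% of the Alk difference. For scale, 6.56% of all common regions were at least 2-fold higher in old cells. Nothing is read from that share or from the rank, since the same contrast chose the gene.

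A second Alk region, chr17:72399228-72400194, had 33.6 and 30.8 CPM in old cells, against 16.0 CPM in young cells, and carried 26.2%. The region over the start site, chr17:72604192-72605258, which holds the CG-rich sequence shown above, had 26.6 and 18.9 CPM in old cells, against 15.7 CPM in young cells, and carried 11.3%. The start site thus differed much less than the region deep inside the gene, with fitted folds of 1.40 and 11.3. In the most open Alk region, chr17:72021770-72022784, the order was turned round, at 47.4 and 44.7 CPM in old cells, against 49.2 CPM in young cells. Another strong one, chr17:72131865-72132803, had 37.6 and 32.1 CPM in old cells, against 39.7 CPM in young cells. Of the 18 common regions of Alk, 10 had both old libraries above the young one and 3 had both below. The first order held for 34.3% of all common regions, and nothing is read from these counts for the same reason as above.

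Il1rapl1 had 62.6 and 71.3 CPM in old proximal tubule-like cells, against 49.5 CPM in young cells. All of this came from 1 common region, chrX:87237717-87238835, 497 kb from the low-coordinate end of a gene of 1375012 bases. The fitted log2 difference was 0.43 (SE 0.22), or 1.35-fold. The region over its start site, chrX:88115607-88116528, had no peak in old replicate 1, and had 2.68 CPM in old replicate 2, against 2.103 CPM in the young library. The X chromosome took 1.87% and 1.99% of the counts in the old replicates and 1.91% in the young library. None of the libraries had a peak over the Y-linked genes Kdm5d, Uty, Ddx3y and Eif2s3y.

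**Figure D1:**
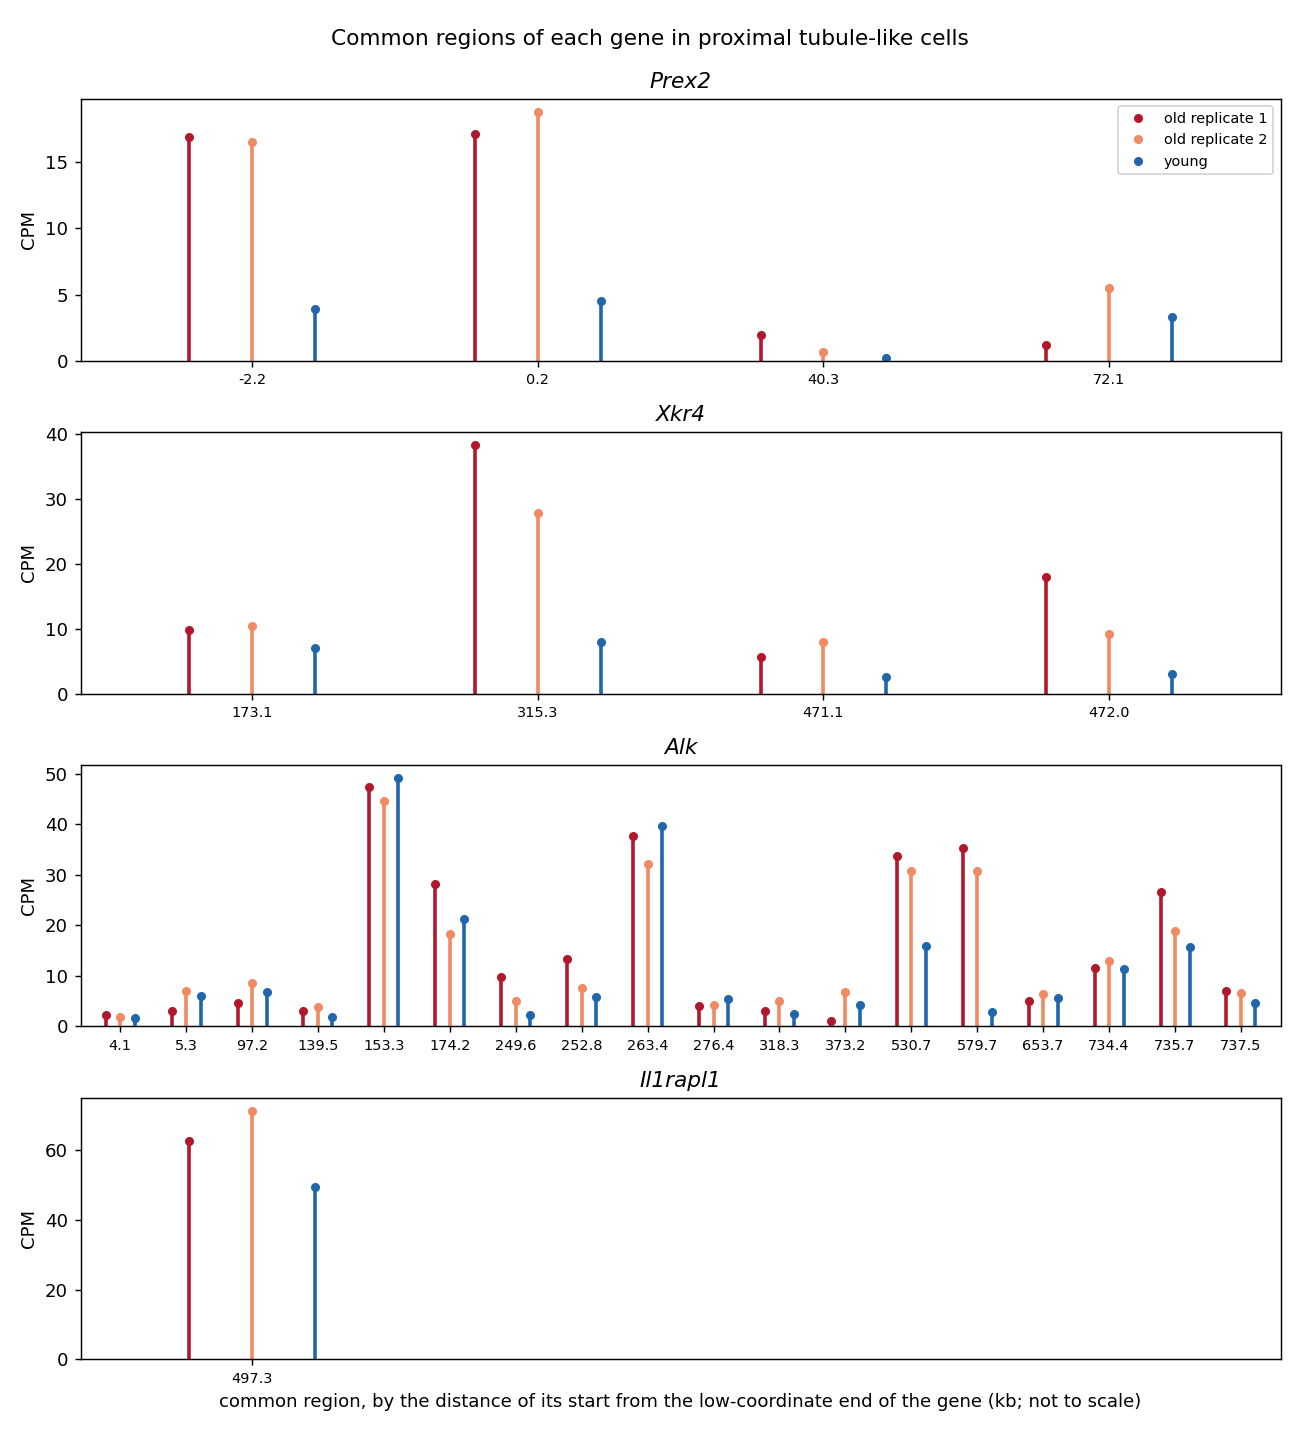
CPM in proximal tubule-like cells for each common region of the 4 genes, 1 panel a gene, with regions in order along the gene and labelled by their distance from its low-coordinate end in kb. Each region has a point for both old replicates and, to their right, for the young library. Prex2 differs at the regions by its low-coordinate end, Xkr4 mainly at 1 inner region, and Alk most at a region with 35.2 and 30.8 CPM in old cells and 2.86 CPM in young cells, while its 2 most open regions are about level.

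Old replicate 1 had few proximal tubule-like cells, and many regions without a peak there had one in both other libraries. For these, only 1 old library can be set against the young one. All 3 such regions of Prex2 were higher in old replicate 2, with folds of 1.44 to 2.05. For Xkr4 all 6 were higher, with folds of 1.09 to 2.50, and for Il1rapl1 all 4, with folds of 1.24 to 1.63. For Alk 12 of 17 were higher, with folds of 0.620 to 2.53. All of them were small, at 5.48 CPM or less. The share of all such regions that were higher in old replicate 2 is not given here. Nothing is read from these counts, since the same contrast chose the genes.

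Much of the proximal tubule-like class lay in clusters that held cells of nearly 1 age only, so the age and the cluster cannot be told apart for most cells. Clusters 0 and 6 held 2212 and 808 young cells, with 1 to 3 cells of each old library. Clusters 2 and 5 held 71 and 9 cells of old replicate 1, 1451 and 898 cells of old replicate 2 and none of the young library. Clusters 9, 10, 11, 12 and 14 held at least 10 cells of every library, and 5 clusters in all can therefore be read within the cluster.

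Within those clusters Prex2, Xkr4 and Alk kept both old libraries above the young one in 4 of 5 each. Of all genes, 6.79% did so in at least 4 of 5, and nothing is read from that share since these cells chose the genes. In cluster 9, Prex2 had 21.2 and 23.6 CPM in old cells, against 2.30 CPM in young cells. In the same cluster Xkr4 had 34.4 and 37.6 CPM in old cells, against 1.15 CPM in young cells. The exception was cluster 11 for all of them, where old replicate 1 lay below the young library and its sums rested on 0 to 21 counts. The inner Alk region had 43.6 and 41.5 CPM in old cells of cluster 12, against 10.9 CPM in young cells, the last from 2 counts. It had 34.7 and 23.1 CPM in old cells of cluster 14, against 1.28 CPM in young cells, also from 2 counts. Young cells of clusters 9, 10 and 11 had no count in that region. In cluster 9 the Prex2 region over the gene's end had 6 and 60 counts in old cells and 0 counts in young cells. These are counts from 13 to 157 young cells per cluster and are given without a test.

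Il1rapl1 did not share this. It had both old libraries above the young one in 0 of the 5 clusters and both below in 3. Its level followed the cluster: in cluster 10 it had 294 and 265 CPM in old cells, against 304 CPM in young cells. These came from 150 and 902 counts, against 26 counts in 13 young cells. In cluster 12 it had 27.4 and 63.4 CPM in old cells, against 54.4 CPM in young cells, the last from 10 counts. In the clusters of 1 age it had 38.8 and 37.8 CPM in old replicate 2 (clusters 2 and 5), against 51.3 and 32.3 CPM in the young library (clusters 0 and 6). Cluster 10 made up 11.6% and 8.35% of the proximal tubule-like cells of the old replicates, against 0.390% of the young ones. It held 47.2% and 27.8% of their Il1rapl1 counts in the old replicates, against 0.662% in the young library. Without cluster 10, Il1rapl1 had 36.7 and 55.7 CPM in old cells, against 49.2 CPM in young cells, and the fitted log2 difference was -0.08, so the young value lay between the old ones. The label of a gene more open in old proximal tubule cells therefore holds for Il1rapl1 over the class as a whole and not within the clusters that the libraries share. Without that cluster the log2 difference was 1.64 for Prex2, 1.59 for Xkr4 and 0.36 for Alk.

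**Figure D2:**
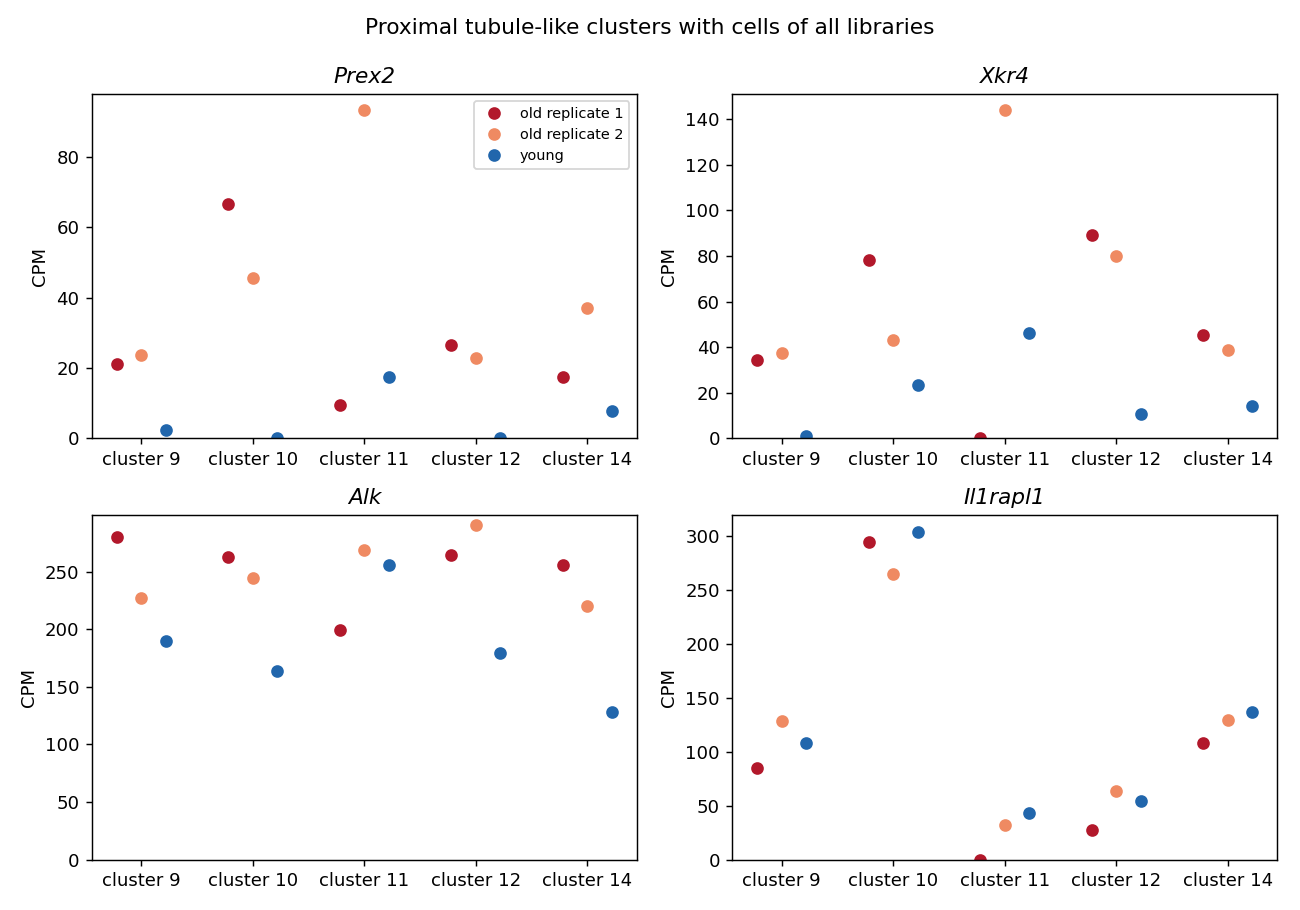
CPM over each gene in the 5 proximal tubule-like clusters with at least 10 cells of every library, with both old replicates left of the young library. Prex2, Xkr4 and Alk have both old points above the young one in 4 of 5 clusters. Il1rapl1 stands at 294 and 265 CPM in old cells and 304 CPM in young cells of cluster 10, the last from 26 counts in 13 cells. It has both old points above the young one in none of the 5 clusters.

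Other cell classes did not choose the genes, so they can be tested. Loop to collecting duct-like cells, cluster 7, were named by markers from the thin limb to the collecting duct. The 29 with a common region summed to 1102 and 1176 CPM in old cells, against 1143 CPM in young cells. In proximal tubule-like cells the same 29 had nearly that sum, at 1052 and 1121 CPM, against 1138 CPM. Proximal tubule markers were lower in cluster 7 than there, at 470 and 562.8 CPM, against 608.2 CPM. Its naming score was 2.23 for its own set and 2.04 for parietal epithelium. In this class 0 of the 4 genes were called by edgeR's quasi-likelihood test at an adjusted p under 0.05, beside 0.177% of 23157 genes. At an unadjusted edgeR p under 0.05 there was 1, Xkr4, beside 4.21% of all genes, and DESeq2 called 0. Xkr4 had 50.8 and 31.5 CPM in old cells, against 15.4 CPM in young cells. Both old values lay above the young one, and nothing is read from that order, since its share over all genes of this class is not given here. Its log2 difference was 1.35 (SE 0.48), with an edgeR p of 0.0051 and an adjusted p of 0.629. The region over the high-coordinate end of Xkr4 had 36.6 and 14.4 CPM in old cells, against 5.59 CPM in young cells, a log2 difference of 2.02 (SE 0.70) with an edgeR adjusted p of 0.6445. The inner Xkr4 region that led in proximal tubule-like cells was near 0 here, at 0 and 3.28 CPM in old cells and 0.931 CPM in young cells.

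Prex2 had 7.08 and 8.54 CPM in old loop to collecting duct-like cells, against 17.7 CPM in young cells, from 6 and 26 counts against 38 counts. Its log2 difference was -1.15 (SE 0.75), and the edgeR adjusted p was 1.00. Alk had 176 and 157 CPM in old cells, against 168 CPM in young cells, a log2 difference of -0.03 with an approximate 95% interval of -0.49 to 0.42 (edgeR adjusted p = 1.00). This class was open at the most open Alk region, with 50.8 and 38.1 CPM in old cells and 41.0 CPM in young cells. It was nearly closed at the Alk region that led in proximal tubule-like cells, with 0 and 1.97 CPM in old cells and 0 CPM in young cells. Il1rapl1 had 116 and 76.8 CPM in old cells, against 73.6 CPM in young cells, a log2 difference of 0.33 with an approximate 95% interval of -0.22 to 0.87 (edgeR adjusted p = 1.00). Of the 27 common regions 17 could be tested in this class. By edgeR 0 were called, beside 0.0607% of 51088 regions, 1 had an unadjusted p under 0.05, beside 1903 of all those regions, and DESeq2 called 0.

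In endothelium-like cells 3 of the 4 genes could be tested, and edgeR called 0, beside 0.320% of 17825 genes. None had an unadjusted p under 0.05, and DESeq2 called 0. This class held 165 and 89 cells of the old replicates, against 40 of the young library. Prex2, the gene most open there, had a log2 difference of -0.04 with an approximate 95% interval of -0.56 to 0.48 (edgeR adjusted p = 0.979). Alk had 38.0 and 40.5 CPM in old cells, against 17.4 CPM in young cells, from 66 and 28 counts against 8 counts, and the edgeR adjusted p was 0.571. Il1rapl1 had 12.7 and 5.79 CPM in old cells, against 21.8 CPM in young cells, from 22 and 4 counts against 10 counts, and the edgeR adjusted p was 0.799. Xkr4 had 1 and 8 counts in old cells, against 2 counts in young cells, and was not tested. The proximal tubule markers summed to 173.5 and 249 CPM in old endothelium-like cells, against 483.6 CPM in young ones, with 6 or 7 of 20 at 0, and their part in these values was not tested. Of the 27 common regions 6 could be tested, and edgeR called 0, beside 0.635% of 22203 regions, with 0 at an unadjusted p under 0.05 and 0 by DESeq2.

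Immune cells came almost wholly from old replicate 1, and there the leading regions of Alk, Xkr4 and Prex2 were close to empty. The inner Alk region had 11 counts in 3439 macrophage or dendritic cell-like cells of old replicate 1, or 0.274 CPM, beside 35.2 CPM in the proximal tubule-like cells of the same library. The inner Xkr4 region had 8 counts, or 0.199 CPM, and the Prex2 region over the gene's end had 8 counts, or 0.199 CPM. The only common region of Il1rapl1 was less empty, with 170 counts or 4.23 CPM in these cells of old replicate 1 and 10.4 CPM in the young library. Summed over its common regions, Alk had 26.5 fragments per 1000000 in these cells of old replicate 1 (exact Poisson 95% interval 24.3 to 28.9), against 51.4 in the young library (36.9 to 69.8). That sum leaves out 14 Alk regions with a peak in old replicate 1 alone. One of them, chr17:71964347-71965157, had 158 counts in these cells. In T or NK cell-like cells Alk had 10.8 fragments per 1000000 in old replicate 1 (8.12 to 14.0), against 50.6 in the young library (25.3 to 90.6). With 1 library a group this has no replicate check. Of all genes with at least 10 fragments in 1 library, 10.3% were at least 2-fold lower in old replicate 1 in macrophage or dendritic cell-like cells and 11.3% in T or NK cell-like cells. Alk passed that threshold in T or NK cell-like cells and fell just short of it in macrophage or dendritic cell-like cells. Il1rapl1 passed it in both, at 4.15 fragments per 1000000 in macrophage or dendritic cell-like cells of old replicate 1, against 10.0 in the young library. In T or NK cell-like cells it had 7.05, against 23.0, and the young values rested on 8 and 5 fragments. Prex2 passed it in macrophage or dendritic cell-like cells alone, at 1.07 against 3.76, from 22 fragments against 3. Xkr4 passed it in neither class.

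**Figure D3:**
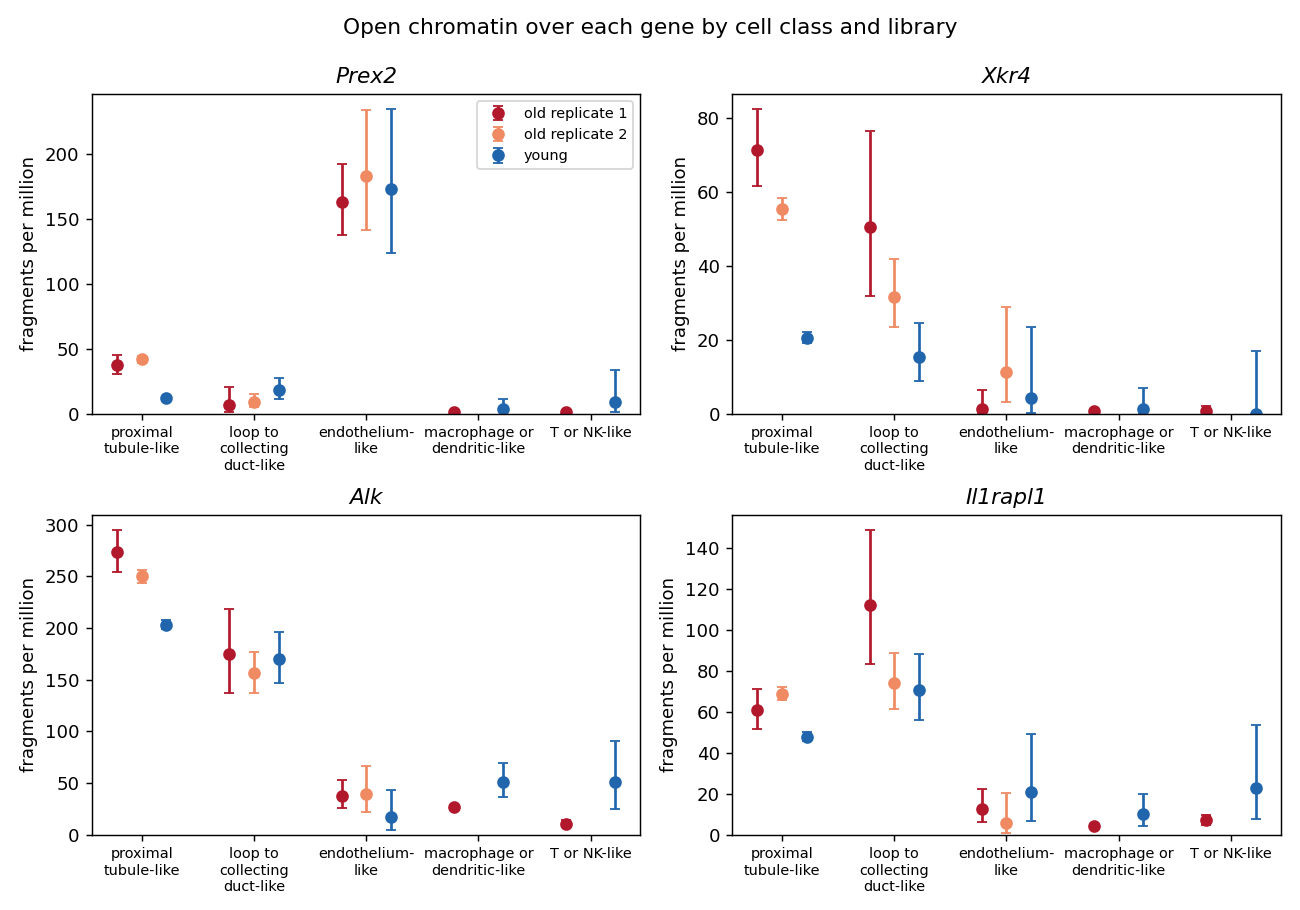
Fragments per 1000000 over the common regions of each gene, by cell class, with both old replicates left of the young library and exact Poisson 95% intervals that cover counting error only. Classes with fewer than 20 cells in a library have no point for it. Prex2 is highest in endothelium-like cells, Xkr4 and Alk in proximal tubule-like cells, and Il1rapl1 in loop to collecting duct-like cells.

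**Figure D4:**
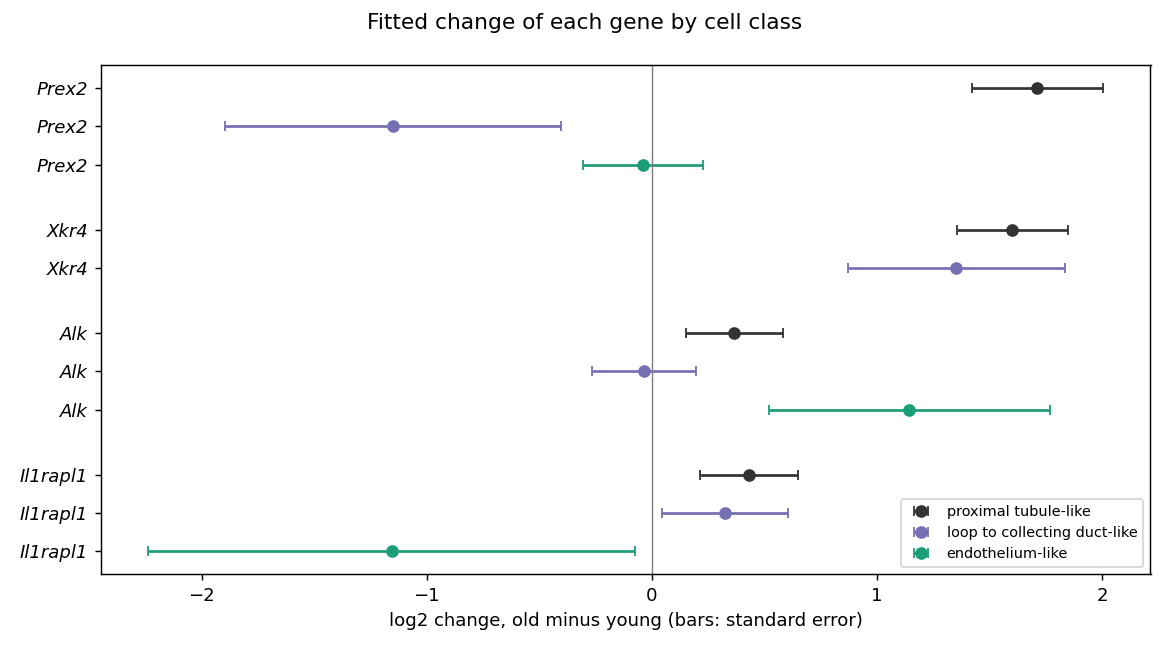
Fitted log2 difference, old minus young, of each gene in each class where it could be fitted, with bars for the standard error. The values in proximal tubule-like cells chose the genes. In the other classes Xkr4 has 1.35, Prex2 has -1.15 in loop to collecting duct-like cells, and none was called.

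By length the order of the genes changed. Per kb of common region, Il1rapl1 had the highest level in proximal tubule-like cells, at 55.9 and 63.7 CPM per kb in old cells and 44.2 CPM per kb in young cells. Xkr4 had 18.8 and 14.5 CPM per kb in old cells and 5.38 CPM per kb in young cells. Alk had 15.7 and 14.3 CPM per kb in old cells and 11.5 CPM per kb in young cells, which overlaps Xkr4 in old cells and lies above it in the young library. Prex2 was lowest with 9.32 and 10.4 CPM per kb in old cells and 3.00 CPM per kb in young cells.

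Few genes of the pathways around the 4 were called in proximal tubule-like cells. Of 33 tested genes of the Rac exchange factors and PI3-kinase signalling, 0 were called by edgeR, 1 had an unadjusted p under 0.05, and DESeq2 called 0. The median log2 difference was -0.03, beside 0.00 over all genes. Dock5, another Rac exchange factor, was highest, with 79.9 and 89.8 CPM in old cells and 59.2 CPM in young cells (edgeR adjusted p = 0.566). Of 25 genes of the XK-related family and lipid scrambling, edgeR called 0, with 2 at an unadjusted p under 0.05 and 0 by DESeq2, and a median of -0.04. Plscr4, of the phospholipid scramblase family, was highest, with 26.8 and 28.5 CPM in old cells and 13.3 CPM in young cells (edgeR adjusted p = 0.130). Of 20 genes of the interleukin-1 receptor family and the partners of IL1RAPL1, edgeR called 0, with 0 at an unadjusted p under 0.05 and 0 by DESeq2. Their median was 0.01, and the highest and lowest were Irak3, a brake on receptor signalling, at 0.20 and Il1r1, the interleukin-1 receptor, at -0.25.

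Among 21 ligands, relatives and adaptors of ALK, edgeR called 1, which was higher in old cells, beside 0.532% of all genes, and DESeq2 called 1. At an unadjusted p under 0.05 the share was 4.76% of the list, near the 4.87% of all genes. This was Ptn, which encodes pleiotrophin, a secreted factor described as an ALK ligand in earlier work. It had 13.8 and 5.97 CPM in old proximal tubule-like cells, against 1.37 CPM in young cells, from 70 and 272 counts against 109 counts in 1 common region. Both old libraries lay above the young one, and the log2 difference was 2.77 (SE 0.68), with an edgeR adjusted p of 0.0101. The call was lost without cluster 12 (2.56, edgeR adjusted p = 0.130), in the shared clusters alone (2.70, 0.0778) and over all merged regions (0.68, 1.00). The median of the list was -0.04, with Jak2 at 0.25 and Insr, the insulin receptor, at -0.20 as the highest and lowest of its better covered genes.

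Both lists of segment markers describe the tubule cells themselves. Of 13 tested genes of the early proximal tubule, 12 had a log2 difference under 0 and the median was -0.27. Slc34a1, the phosphate transporter, had 82.8 and 136 CPM in old cells, against 169 CPM in young cells (edgeR adjusted p = 0.151). At an unadjusted p under 0.05 by edgeR there were 4 of the 13 early genes, or 30.8%, and 3 of 14 genes of the late segment, or 21.4%, beside 4.87% of all genes. Of the late genes edgeR called 1, beside 0.532% of all genes called higher. This was Slco1a6, an organic anion transporter, with 31.5 and 32.3 CPM in old cells, against 12.7 CPM in young cells (log2 1.32, SE 0.31, edgeR adjusted p = 0.0060). DESeq2 gave an adjusted p of 0.0512 for it, and in the shared clusters its log2 difference was 0.14. The median of the late list was 0.00.

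In proximal tubule-like cells other long genes were called about as often as all genes. Of 518 other tested protein-coding genes of at least 300 kb, edgeR called 3 higher and 1 lower in old cells, 0.579% and 0.193%, beside 0.532% and 0.176% of all genes. Their median log2 difference was -0.02. Those called higher were Galnt13, a glycosyltransferase, at 2.72, Gabrg3, a GABA receptor subunit, at 2.36, and Snrpn, an imprinted splicing gene, at 1.41. Grid1, a glutamate receptor gene, was called lower, with 53.1 and 72.2 CPM in old cells, against 119.6 CPM in young cells (log2 -0.92, SE 0.20, edgeR adjusted p = 0.0015), and DESeq2 gave an adjusted p of 0.0906. Snrpn had 38.8 and 52.2 CPM in old cells, against 17.1 CPM in young cells (SE 0.26, edgeR adjusted p = 8.0e-05). Without old replicate 2, Galnt13 had a log2 difference of 1.63, and without cluster 12 Gabrg3 had an edgeR adjusted p of 0.339. Several of these genes act in neurons, as do Alk and Il1rapl1, and the 14 neuron or Schwann cell markers with a common region summed to 288.2 and 331.6 CPM in old proximal tubule-like cells, against 273 CPM in young ones, with none at 0. Their part in these values was not tested.

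In endothelium-like cells, where the young side is a sum of only 40 cells, the long genes differed more by edgeR. Of 383 tested there, edgeR called 11 lower and 0 higher in old cells, or 2.87% lower, beside 0.135% of all genes lower and 0.185% higher, and DESeq2 called 0. At an unadjusted p under 0.05 by edgeR there were 18.5% of the long genes and 9.48% of all genes, and the median log2 difference was -0.17, beside 0.02 over all genes. The log2 differences of the 11 lay between -3.91 and -1.46. Auts2, a gene of neuronal development, had the lowest adjusted p of them, with 30.0 and 34.7 CPM in old cells, against 137 CPM in young cells (log2 -2.12, SE 0.39, edgeR adjusted p = 0.00019). Slc4a4, which is among the 11, is itself on the list of proximal tubule markers. The sum of those markers given above was also lower in old endothelium-like cells, and its part was not tested. In loop to collecting duct-like cells edgeR called 0 of 500 long genes, with 27 at an unadjusted p under 0.05 and 0 by DESeq2.

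None of the genes beside the 4 was called. Of 16 nearest protein-coding neighbours 9 could be tested in proximal tubule-like cells, and edgeR called 0, with 0 at an unadjusted p under 0.05 and 0 by DESeq2. Clip4, 4.78 kb from Alk, had 13.2 and 16.5 CPM in old cells and 16.7 CPM in young cells. On the other side Ypel5 had 149 and 144 CPM in old cells and 151 CPM in young cells. Lbh, beyond Ypel5, had 81.65 and 58.8 CPM in old cells and 53.0 CPM in young cells (log2 0.37, SE 0.22). Cpa6, the nearest tested gene on the low side of Prex2, had 8.46 and 8.27 CPM in old cells and 8.01 CPM in young cells. Arfgef1, beyond it, had 55.9 and 59.1 CPM in old cells and 68.7 CPM in young cells. A830018L16Rik, on the high side of Prex2, had 17.5 and 20.6 CPM in old cells and 12.0 CPM in young cells (log2 0.66, SE 0.38). Rp1, on the high side of Xkr4, had 3.54 and 4.39 CPM in old cells and 3.60 CPM in young cells. None of the neighbours of Il1rapl1 had a common region.

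Across the 14 sums of a library and a class with at least 20 cells, the genes most like Il1rapl1, Xkr4 and Prex2 were sought by the correlation of log2(CPM + 5). Jph1, a junctional membrane gene, was most like Il1rapl1 (r = 0.981). Gm51713, an lncRNA, was most like Xkr4 (r = 0.969). Ces2f and Ces2g, carboxylesterase genes that share their counts, were most like Prex2 (r = 0.965). These sums share libraries and depth, so r is a description only.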

How the data were processed

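The authors processed reads with Cell Ranger ATAC 2.1.0, per the submitters' processing notes, on mm10, and deposited raw counts (transposase cuts in each peak, for each called barcode), with peaks called in each library alone. No other upstream step is given in the sources used here. Peaks were merged at 1 bp overlap into 250005 regions, of which 72317 had a peak in every library (common regions). Barcodes with at least 1000 counts were kept, 5315 and 3950 in the old replicates and 3976 in the young library; 248, 133 and 135 with the highest scores against simulated doublets were removed, at 0.8% per 1000 barcodes. Of the common regions, those open in 1% of cells or more and not of the 4 genes were reduced by latent semantic indexing (30 components, 20 neighbours, seed 7) and clustered by the Leiden method at resolution 1.0 into 20 clusters (Python 3.11.15, scikit-learn 1.9.0, leidenalg 0.10.2).

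Clusters were named from marker sets by at least 3 raised markers (10 CPM or more, and a log2 fold of 1 or more relative to the clusters' lower quartile) and a lead of 0.15 over the next set. A name also required that no other set had more markers among the cluster's 10 leading genes, those with the highest folds. A cluster of low depth needed a marker of its own set there. Aqp1, a thin limb marker that proximal tubule also uses, was left out of that count alone and kept in the score. The scoring rule, the lead and the treatment of Aqp1 were revised after the clusters had been seen. At the first lead of 0.25 the loop to collecting duct-like cluster 7 had no name. The printed Il1rapl1 difference depends on counting cluster 10, which had 19 of 22 proximal tubule markers raised, in that class. Unnamed clusters held 170, 8 and 189 cells. A gene's count is the sum of its common regions within 2 kb of the gene body, matched by position to RefSeq (GRCm38.p6).

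Summed counts per library and class were tested by edgeR 4.0.16 (R 4.3.3, quasi-likelihood, TMM, filterByExpr, Benjamini-Hochberg over all features, called under 0.05), with DESeq2 1.42.0 as an alternative. The spread comes from the 2 old libraries alone. Intervals of log2 differences are approximate, from the SE. Most counts are even since both ends of a fragment count, so Poisson intervals use fragments (count over 2, rounded up). On simulated counts the test recovered 99% of genes changed by a log2 of 2 in proximal tubule-like cells, 93% in loop to collecting duct-like and 79% in endothelium-like cells, and 56%, 28.3% and 13% at a log2 of 1. For regions it recovered 75% in loop to collecting duct-like and 56.1% in endothelium-like cells at a log2 of 2, and 10% and 8.08% at a log2 of 1. The simulation gave every feature the same spread and left out those with few expected counts. Recovery may be lower for features with a larger spread or fewer counts.

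Genes were named by this rule: the 4 genes, their 3 leading regions and start, every called gene of a list or else its highest and lowest with at least 10 CPM, the nearest 2 coding neighbours on each side, and the 3 most alike genes, of which the text gives some; a few genes that meet it are not reported here. The 4 genes, the lists and the clusters left out were chosen with earlier results of these data known.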

Additional observations from a re-analysis of the deposited data

Results flagged for a closer look

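Prex2 differed in direction between classes. It had 37.2 and 41.6 CPM in old proximal tubule-like cells, against 12.0 CPM in young ones, but 7.08 and 8.54 CPM in old loop to collecting duct-like cells, against 17.7 CPM in young ones, from 6 and 26 counts against 38 counts. The log2 difference was larger by 2.86 in proximal tubule-like cells, every old library lying above the young one there and below it in the other class. The difference between the classes was not tested.

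Il1rapl1 lay above the young library in both old libraries in proximal tubule-like and in loop to collecting duct-like cells, and below it in endothelium-like cells, where it had 22 and 4 counts in old cells, against 10 counts in young cells. Its log2 difference was larger than in endothelium-like cells by 1.59 in proximal tubule-like cells and by 1.48 in loop to collecting duct-like cells. Neither difference was tested. In endothelium-like cells the 20 proximal tubule markers summed to 173.5 and 249 CPM in old cells, against 483.6 CPM in young cells, and their part was not tested.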

How the results depend on the processing

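No paired analysis was possible because the young group is 1 library without a replicate number. In proximal tubule-like cells Prex2 kept a log2 difference of 1.497 to 2.28, Xkr4 of 1.34 to 2.11 and Alk of 0.31 to 0.51 under the alternatives run. Il1rapl1 had 0.09 in the shared clusters, 0.66 without cluster 12 and 0.30 without old replicate 2, and it reversed to -0.0827 without cluster 10; the cause was not tested. Leaving out clusters 12 and 10 and clustering with the members' own regions were chosen after seeing the data. Without 1 old replicate each value was refitted with 1 library a side and has no test.

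Elsewhere, Alk in loop to collecting duct-like cells reversed to 0.0877 over all merged regions, 0.110 at its start site alone and 0.497 with peaks open in at least 2% of barcodes, and Prex2 in endothelium-like cells to 0.229 over all merged regions and 0.0725 without the 2 kb. Alk in endothelium-like cells was 1.08 without old replicate 1 and 1.09 without old replicate 2.

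Xkr4 in loop to collecting duct-like cells ranged over 0.11 (all merged regions) to 1.88 (gene starts), with edgeR or DESeq2 adjusted p of 0.444 to 1.00. Gene starts are RefSeq start sites or, for genes such as Prex2 and Xkr4 without one in the table used, both gene ends, each with 2 kb.

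Ptn, Galnt13, Gabrg3, Snrpn, Grid1 and Slco1a6, called in proximal tubule-like cells, each lost the call over all merged regions and in the shared clusters. Grid1 and Slco1a6 also lost it with DESeq2, Gabrg3 and Ptn without cluster 12, and Slco1a6 and Snrpn at gene starts; the cause was not tested. Genes called in proximal tubule-like cells were 181, but 66 with DESeq2, 0 over all merged regions (edgeR, 465 at an unadjusted p under 0.05), 93 at gene starts, 9 with peaks open in at least 2% of barcodes and 44 in the shared clusters. Regions were 609, but 109 by library size alone, 214 with DESeq2, 149 at 3000 counts per barcode, 28 with such peaks, 335 at Leiden resolution 2.0 and 106 without cluster 12. In loop to collecting duct-like cells 41 genes were called, but 2 with DESeq2, 1 over all merged regions, 5 at gene starts and 25 without the 2 kb, and 31 regions, but 8 with RLE, 1 with DESeq2 and 0 with no filter (edgeR, 1519 unadjusted). In endothelium-like cells 57 genes were called, but 0 with RLE (edgeR, 1320 unadjusted), 2 with DESeq2, 0 over all merged regions (edgeR, 1209 unadjusted), 22 at gene starts, 15 with such peaks and 14 on fragments, and 141 regions, but 25 with RLE, 0 with DESeq2 (663 unadjusted), 86 with no filter, which moved the median log2 difference to 0.34, 0 with such peaks (edgeR, 1295 unadjusted) and 52 at 50% reciprocal overlap. Regions higher and lower in old cells split 20 to 11 in loop to collecting duct-like cells, but 31 to 10 by library size alone, and 114 to 27 in endothelium-like cells, but 23 to 2 with RLE. The other settings run for these counts stayed within 1.5 times. Counts in the shared clusters, on fragments and at resolution 2.0 were added after seeing the data.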
